A study of Mus musculus with 8 samples.

Results

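The synapsins, the SV2 proteins and the synaptophysin family are proteins of synaptic vesicles, and the levels of 10 genes that encode them were examined in bulk RNA of the whole mouse brain. The genes were Syn1, Syn2 and Syn3 (synapsins), Sv2a, Sv2b and Sv2c (SV2 proteins), Syp and Synpr (synaptophysin and synaptoporin) and Syngr1 and Syngr3 (synaptogyrins). They were taken by gene symbol from the deposited table, which held all 10 among 24343 genes. The brains came from 3 C57BL/6NCrl mice, an inbred laboratory strain, aged 56 to 62 days, in 1 untreated and genetically unmodified condition. The study used male and female mice, and its text does not state the sex of these 3. RNA of each whole brain was read as 3 libraries for mouse 1, 3 for mouse 2 and 2 for mouse 3, and the labels do not say whether libraries of a mouse were separate extractions or repeats of 1. The only grouping the labels allow is therefore the mouse, and p-values measure differences between these 3 brains against the spread between libraries of a brain, which may be technical. Values are FPKM, fragments per kilobase of transcript scaled to sequencing depth, summed over the transcripts of a gene and averaged per mouse and then over mice, so that levels can be compared between genes per length.

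Synaptic vesicles store neurotransmitter at nerve terminals, and the proteins studied here are among the abundant proteins of the vesicle. Synapsins sit on the cytosolic face, hold vesicles in a cluster near the release site and let them go when kinases phosphorylate them. SV2 proteins are transporter-like glycoproteins of the vesicle membrane that act on vesicle priming. SV2A is the binding site of the antiseizure drug levetiracetam, and SV2C is a receptor for botulinum neurotoxin A. Synaptophysin, synaptoporin and the synaptogyrins cross the membrane several times and have both ends in the cytosol. Synaptophysin binds the vesicle SNARE synaptobrevin and is a standard histological marker of synapses, and synaptoporin is its close relative, known from hippocampal mossy fibres. In a whole brain all of these come from many kinds of neuron at once, so fewer cells of a type and less RNA per cell cannot be told apart.

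Synpr and Sv2b are each read from a pair of start sites in the deposited table, and their upstream sequences are shown because each start has a transcript level of its own below. The sequences are RefSeq's on GRCm38.p6, 5′ to 3′ on the strand of the gene, and end at the base before the annotated start. Capitals mark a GC box (GGGCGG, bound by Sp1 family factors) or a TATA box (TATAAA), each searched on both strands.
Synpr, start of NM_028052 (chr14:13284639-13284779, plus strand): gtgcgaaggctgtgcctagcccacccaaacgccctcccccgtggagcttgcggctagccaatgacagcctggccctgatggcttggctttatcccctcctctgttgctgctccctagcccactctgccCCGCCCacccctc
Synpr, start of NM_001163032 (chr14:13453708-13453957, plus strand): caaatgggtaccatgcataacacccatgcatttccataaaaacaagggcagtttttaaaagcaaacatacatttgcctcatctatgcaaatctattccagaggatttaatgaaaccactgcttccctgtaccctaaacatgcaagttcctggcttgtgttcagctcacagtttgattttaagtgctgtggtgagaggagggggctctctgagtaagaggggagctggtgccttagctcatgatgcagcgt
Sv2b, start of NM_153579 (chr7:75309263-75309512, minus strand): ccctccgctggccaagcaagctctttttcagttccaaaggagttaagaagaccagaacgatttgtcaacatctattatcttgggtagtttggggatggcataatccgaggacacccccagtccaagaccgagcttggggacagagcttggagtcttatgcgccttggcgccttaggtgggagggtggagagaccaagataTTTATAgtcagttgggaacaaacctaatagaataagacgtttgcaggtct
Sv2b, start of NM_001109753 (chr7:75308387-75308636, minus strand): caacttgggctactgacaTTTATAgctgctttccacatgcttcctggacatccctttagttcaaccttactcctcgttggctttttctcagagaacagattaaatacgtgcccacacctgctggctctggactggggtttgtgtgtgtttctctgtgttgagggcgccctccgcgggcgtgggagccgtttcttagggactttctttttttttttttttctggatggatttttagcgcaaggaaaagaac

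The Synpr starts lie 169178 bases apart and differ in base composition. The 250 bases before the upstream start, of which the 141 free of annotated exons are printed, were 64% G and C and held 13 CpG dinucleotides, and the printed stretch holds a GC box on the opposite strand. The 250 bases before the downstream start were 44.4% G and C with 1 CpG and held neither motif. Over all 32851 promoter windows of that length the median was 52.4% G and C and 6 CpG. The Sv2b starts lie 876 bases apart, and both windows hold a TATA box on the strand opposite to the gene.

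Syn1 is shown because it was the synapsin that differed most between the mice. The printed stretch ends 87 bases before its annotated start, and capitals mark a cyclic AMP response element (TGACGTCA) and the sequence CAGCACC, which forms one arm of the RE1 element that the repressor REST binds.
Syn1 (chrX:20921005-20921168, minus strand): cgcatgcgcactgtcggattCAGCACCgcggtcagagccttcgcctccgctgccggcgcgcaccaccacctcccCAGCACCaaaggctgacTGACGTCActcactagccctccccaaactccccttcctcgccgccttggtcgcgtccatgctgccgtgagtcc

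The Syn1 window held CAGCACC at 2 places and TGACGTCA at 1. Of all 32851 windows, 5.73% held CAGCACC, 1.55% held TGACGTCA, 32.7% held the GC box and 12.4% the TATA box. RefSeq windows were matched for 8 of the 10 genes, not for Syn3 and Syngr3. Among the 10 windows at their deposited starts, 6 held a GC box, 2 a TATA box, 2 CAGCACC and 1 TGACGTCA. A match describes letters in the window and not a bound factor. Syn1 and Sv2c were the genes with CAGCACC, and the Sv2c window was also the richest in G and C, at 70.8% with 26 CpG.

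Summed over the 10 genes, the level was 953 ± 95.5 FPKM (SD, n = 3 mice). Syp stood highest, at 360 ± 39.4 FPKM (SD, n = 3), and was number 120 of the 24343 genes by level. Syn1 at 121 ± 27.6, Syn2 at 98.9 ± 8.67, Syngr1 at 96.7 ± 8.93, Sv2a at 86.5 ± 19.0, Sv2b at 72.7 ± 5.10, Synpr at 59.1 ± 15.8 and Syngr3 at 47.1 ± 2.26 FPKM followed. Sv2c at 6.97 ± 0.853 and Syn3 at 4.55 ± 0.747 FPKM were far lower (all SD, n = 3 mice). Thus, among the 10 genes, every family but the synaptogyrins had an abundant member and a member well below it. Syngr2, a synaptogyrin outside the 10, was far lower too, at 4.89 FPKM.

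Only 3 of the 9 steps in this order were larger than the spread over mice. Syp was 2.97-fold above Syn1, Syngr3 was 6.77-fold above Sv2c, and Sv2c was 1.53-fold above Syn3, each with mouse ranges that did not overlap, although the ranges over single libraries of Sv2c and Syn3 did. The order of Sv2c and Syn3 also rests on deposited transcript lengths that differ from GENCODE's in opposite directions (4252 against 9101 bases for Sv2c, 8779 against 2360 for Syn3), and it was not tested with other lengths. The steps between Syn1, Syn2, Syngr1, Sv2a, Sv2b, Synpr and Syngr3 were 1.02-fold to 1.25-fold, and the ranges of these neighbours over mice overlapped. Of all 45 pairs of genes, 42 stood in the same order in the 3 mice. The coefficient of variation over mice ran from 4.78% for Syngr3 to 26.8% for Synpr, with a median of 11.6% beside 12.3% over 13001 genes that averaged 1 FPKM or more.

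**Figure D1:**
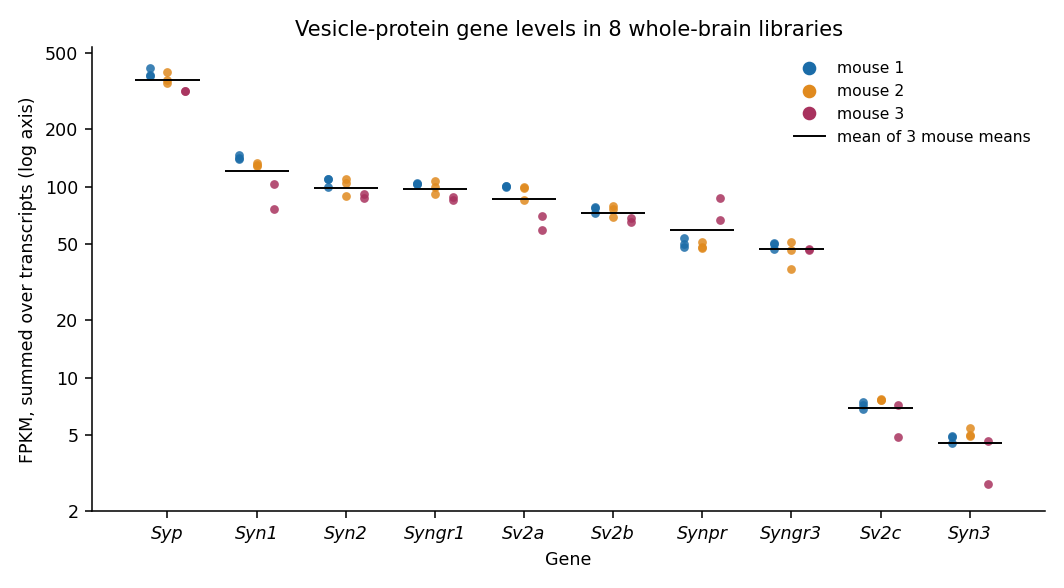
FPKM of the 10 genes (log axis) in the 8 libraries, coloured by mouse, with a bar at the mean of the 3 mouse means. Syp stands at 316 to 417 FPKM in every library, and 8 genes including Syp lie at or above 37.1 FPKM. Sv2c and Syn3 lie between 2.77 and 7.75 FPKM. The mouse 3 libraries are the lowest for Syn1, Sv2a, Sv2b, Syp and Syngr1 and the highest for Synpr.

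Syn1 (synapsin I, chrX:20860511-20920918, minus strand, mm10) is the classical vesicle phosphoprotein, a substrate of protein kinase A and of calmodulin-dependent kinases. Its level was 142, 140.3 and 146 FPKM in the libraries of mouse 1, 128, 134 and 129 FPKM in those of mouse 2, and 103 and 76.8 FPKM in those of mouse 3. Both mouse 3 libraries were below all others. Syn2 (chr6:115134902-115282626, plus strand), which encodes the synapsin most tied to the reserve pool of glutamatergic terminals, had 99.7, 110.0 and 109.5 FPKM in the libraries of mouse 1, 88.8, 104 and 109 FPKM in those of mouse 2, and 92.0 and 86.7 FPKM in those of mouse 3. The ranges of mouse 2 and mouse 3 overlapped. Syn3 (chr10:86048746-86498896, minus strand), known for expression early in neuronal development, had 4.96, 4.57 and 4.92 FPKM in the libraries of mouse 1, 4.99, 5.43 and 4.97 FPKM in those of mouse 2, and 4.65 and 2.77 FPKM in those of mouse 3. Library 2 of mouse 3 was the lowest by a wide margin, and library 1 of that mouse lay within the range of mouse 1.

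Within the synapsins, Syn1 made up 53.5 ± 3.96%, Syn2 44.5 ± 3.97% and Syn3 2.02 ± 0.141% of the summed FPKM (SD, n = 3 mice). The ratio of Syn1 to Syn2 was 1.43, 1.27 and 1.34 in mouse 1, 1.44, 1.28 and 1.18 in mouse 2, and 1.12 and 0.885 in mouse 3. All ratios of mice 1 and 2 exceeded those of mouse 3. How often ratios of other gene pairs separate the mice, here and below, was not examined. Of the 13001 genes that averaged 1 FPKM or more, 21.7% had both mouse 3 libraries below all others and 26.5% above.

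Sv2a (chr3:96181227-96195180, plus strand) is the most widely expressed SV2 gene in brain. Its level was 99.6, 101 and 101 FPKM in the libraries of mouse 1, 84.8, 98.2 and 99.3 FPKM in those of mouse 2, and 70.4 and 59.3 FPKM in those of mouse 3, so that mouse 3 lay below every library of mice 1 and 2. Sv2b (chr7:75114895-75309262, minus strand), found in many glutamatergic neurons, had 72.4, 78.0 and 77.6 FPKM in the libraries of mouse 1, 69.5, 76.5 and 79.6 FPKM in those of mouse 2, and 68.5 and 65.1 FPKM in those of mouse 3. Mouse 3 was again below the others, by a narrow gap to library 1 of mouse 2. Sv2c (chr13:95959443-96132577, minus strand), known from the basal ganglia and midbrain, had 7.50, 6.85 and 7.205 FPKM in the libraries of mouse 1, 7.69, 7.75 and 7.62 FPKM in those of mouse 2, and 7.18 and 4.87 FPKM in those of mouse 3. Library 2 of mouse 3 was alone at the low end.

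Sv2a held 51.6 ± 4.06%, Sv2b 44.2 ± 3.91% and Sv2c 4.21 ± 0.252% of the SV2 sum (SD, n = 3 mice). The ratio of Sv2a to Sv2b was 1.38, 1.29 and 1.304 in mouse 1, 1.22, 1.28 and 1.25 in mouse 2, and 1.03 and 0.910 in mouse 3. It was above 1 in every library but the second of mouse 3, and the ranges of mice 1 and 2 and of mouse 3 did not overlap. The ratio of Sv2c to Sv2a ranged from 0.0681 to 0.0907 in mice 1 and 2 and was 0.102 and 0.0822 in mouse 3, which overlapped.

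Syp (chrX:7638580-7653256, plus strand) encodes synaptophysin. Its level was 417, 380.5 and 382 FPKM in the libraries of mouse 1, 399.8, 348 and 362 FPKM in those of mouse 2, and 317 and 316 FPKM in those of mouse 3. Both mouse 3 libraries were below all others and nearly equal. Synpr (chr14:13284780-13615469, plus strand) had 48.0, 54.0 and 50.4 FPKM in the libraries of mouse 1, 51.2, 47.8 and 48.5 FPKM in those of mouse 2, and 67.2 and 87.5 FPKM in those of mouse 3. It was the only one of the 10 genes with both mouse 3 libraries above all others. The ratio of Synpr to Syp was 0.115, 0.142 and 0.132 in mouse 1, 0.128, 0.137 and 0.134 in mouse 2, and 0.212 and 0.277 in mouse 3, and the mouse 3 ratios were above all others. Synpr held 11.5% of the Syp and Synpr sum in mouse 1, 11.7% in mouse 2 and 19.6% in mouse 3.

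Syngr1 (chr15:80091334-80119501, plus strand) encodes synaptogyrin 1, the main neuronal synaptogyrin. Its level was 105, 103 and 103 FPKM in the libraries of mouse 1, 92.0, 100.1 and 107 FPKM in those of mouse 2, and 88.4 and 84.8 FPKM in those of mouse 3, with both mouse 3 libraries the lowest. Syngr3 (chr17:24685092-24689949, minus strand), a vesicle protein that binds the dopamine transporter and tau, had 47.0, 51.0 and 50.4 FPKM in the libraries of mouse 1, 37.1, 46.6 and 51.1 FPKM in those of mouse 2, and 46.6 and 47.4 FPKM in those of mouse 3. Library 1 of mouse 2 was alone at the low end, and mouse 3 lay inside the range of the other mice. Syngr1 made up 67.2 ± 2.16% of the sum of both (SD, n = 3 mice). The ratio of Syngr1 to Syngr3 ranged from 2.02 to 2.48 in mice 1 and 2 and was 1.90 and 1.79 in mouse 3, without overlap.

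Of the related genes outside the 10, Svop, which encodes an SV2-related transporter of vesicles, was measured at 32.4 ± 1.90 FPKM (SD, n = 3 mice). Sypl, a relative of synaptophysin outside neurons too, was at 9.87 ± 0.502 and Syngr2, the broadly expressed synaptogyrin, at 4.89 ± 0.696 FPKM. Sypl2, Svopl and Syngr4 were below 1 FPKM on average, and Syngr4 was listed at 0 in 7 of 8 libraries.

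The table gives 6 of the 10 genes as a pair of transcripts, 16 transcripts in all. Their FPKM divide reads that the transcripts of a gene share, so single transcripts are estimates. Protein lengths are those of GENCODE M21 for the same RefSeq accession.

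Syn1's transcripts differ in the last part of the coding sequence and by 38 bases in deposited length. NM_013680 encodes 706 residues (synapsin Ia) and NM_001110780 encodes 670 (synapsin Ib). NM_001110780 made up 52.3 ± 4.15% of Syn1 (SD, n = 3 mice). By library its share in percent was 61.4, 53.8 and 53.2 in mouse 1, 46.1, 47.1 and 50.5 in mouse 2, and 52.1 and 53.6 in mouse 3. The form with the larger share was not the same in all libraries, and in mouse 1 the libraries lay about as far apart as the mouse means.

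Syn2 was mostly NM_013681, which encodes 479 residues (synapsin IIb), at 83.8 ± 1.36% of the gene (SD, n = 3 mice). NM_001111015, which encodes the longer synapsin IIa of 586 residues, made up the other 16.2%. Its share in percent was 17.2, 16.8 and 18.3 in mouse 1, 16.4, 15.4 and 17.2 in mouse 2, and 16.1 and 13.3 in mouse 3. The order of the forms was the same in all 8 libraries. For Syn3 nearly all signal, 98.9 ± 0.355%, was assigned to NM_013722, with 579 residues. NM_001164495, a short form of 243 residues, averaged 0.0540 FPKM and did not reach the 1 FPKM needed for a test.

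Sv2b's transcripts encode the same protein of 683 residues and differ in their noncoding first exon. NM_001109753, from the downstream of both starts printed above, made up 72.7 ± 1.67% (SD, n = 3 mice) and was the higher form in every library. Its share in percent was 73.2, 71.1 and 69.3 in mouse 1, 69.5, 74.1 and 74.0 in mouse 2, and 70.0 and 79.1 in mouse 3.

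Synpr's transcripts come from starts 169 kilobases apart and encode proteins of 285 (NM_028052, upstream start) and 265 residues (NM_001163032, downstream start). The downstream start, the one whose window is poor in G and C, gave 29.2, 36.3 and 29.4 FPKM in the libraries of mouse 1, 35.2, 32.3 and 33.2 FPKM in those of mouse 2, and 50.8 and 58.2 FPKM in those of mouse 3. The upstream start gave 18.8, 17.7 and 20.98 FPKM in the libraries of mouse 1, 16.0, 15.5 and 15.4 FPKM in those of mouse 2, and 16.4 and 29.2 FPKM in those of mouse 3. The downstream form was higher in all 8 libraries and made up 67.1 ± 4.54% of the gene (SD, n = 3 mice). Both mouse 3 libraries were above all others for the downstream form. For the upstream form library 1 of mouse 3 lay within the range of the other mice and library 2 above it. Syngr1 was 95.8 ± 1.69% NM_207708 (234 residues), and the short NM_009303 (191 residues) stayed between 2.25 and 6.96 FPKM.

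**Figure D2:**
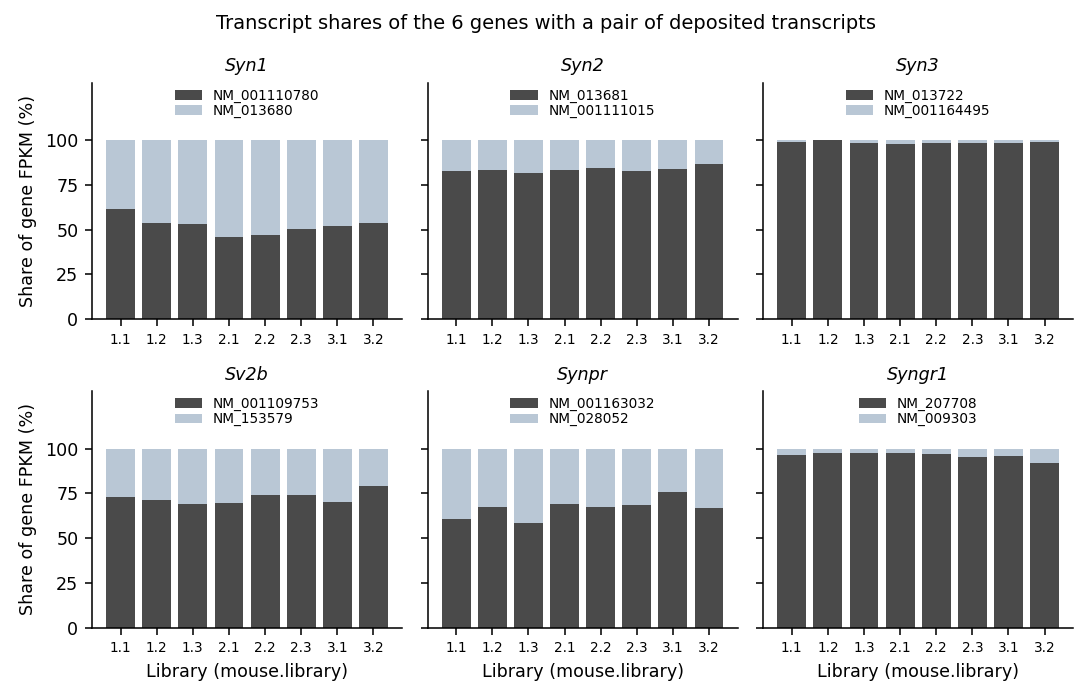
Share of a gene's FPKM in percent taken by each of its transcripts, by library (mouse.library), for the 6 genes with a pair of transcripts. Dark bars are the form with the higher mean; Syn1 is divided near evenly, from 46.1% to 61.4%, while Syn2, Syn3, Sv2b, Synpr and Syngr1 keep the same leading form in all 8 libraries.

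The deposited confidence limits describe the estimate of each form within a library and not the spread between libraries. They lay 1.68% to 2.02% either side of the FPKM of Syp in the 8 libraries, and 32.6% to 62.8% either side of that of the short Syngr1 form. For NM_001110780 of Syn1 they lay 5.78% to 7.28% either side. In mouse 1 the limits of this form were 82.1 to 92.3 FPKM in library 1 and 70.9 to 80.0 FPKM in library 2, without overlap. Transcript lengths in the deposited table and in GENCODE differed most for Syn3 and Sv2c, and since FPKM divides by length, both low levels depend on the length used.

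Between the mice, Syn1 and Sv2a were lower in mouse 3 and Synpr was higher. Syn1 in mouse 3 was at 66.0% and Sv2a at 66.6% of the mean of mice 1 and 2, and Synpr was at 155%. The other 7 genes did not pass the test, and 25.5% of all genes tested passed it. All 3 calls were lost without library 2 of mouse 3. Synpr was the 1 called gene that was higher.

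The test was limma's moderated F-test over the 3 mice on log2(FPKM + 1), fitted to all 13001 genes that averaged 1 FPKM or more, and its p-values were adjusted over all of these genes by the method of Benjamini and Hochberg. It called 3 of the 10 genes (30%), against the 25.5% of all genes, so that the share of the 10 was near that of all genes. In direction, 2 of 10 were called lower in mouse 3, against 11.3% of all genes, and 1 of 10 higher, against 14.1%. On the log2(FPKM + 1) scale the difference of mouse 3 from the mean of mice 1 and 2 was −0.61 ± 0.11 (SE) for Syn1, with a limma adjusted p of 0.0142. It was −0.58 ± 0.09 (SE) for Sv2a, with a limma adjusted p of 0.0116. For Synpr it was 0.61 ± 0.11 (SE), with a limma adjusted p of 0.0144. Mouse 1 and mouse 2 differed from each other by −0.13 in Syn1, −0.10 in Sv2a and −0.04 in Synpr on the same scale, as mouse 2 minus mouse 1.

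Syp differed by −0.27 ± 0.08 (SE), with a limma adjusted p of 0.0731, and Syngr1 by −0.23 ± 0.08 (SE), with a limma adjusted p of 0.114. Adjusted p-values here are of the F-test over the 3 mice, unless another test is named, and not of the difference beside them. With limma's contrast of mouse 3 with mice 1 and 2 as the test, Syp (adjusted p = 0.0315) and Syngr1 (adjusted p = 0.0481) were called. That test called 37.9% of all genes. Differences for Syn3, Sv2c, Syn2 and Sv2b were −0.37, −0.28, −0.21 and −0.18, with limma adjusted p from 0.143 to 0.255. For Syngr3 the difference was 0.00 ± 0.11 (SE), and it was below 0 when libraries were scaled to the same total, without length normalization or with the length trend removed. Relative to the median of all genes it was −0.02 as deposited and −0.04 scaled to the same total. The median over the 10 genes was −0.25, beside 0.02 for all genes tested. Both mouse 3 libraries lay below all others for 5 of the 10 genes (Syn1, Sv2a, Sv2b, Syp and Syngr1), as for 21.7% of all genes tested, and above all others for Synpr, as for 26.5% of all genes tested.

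**Figure D3:**
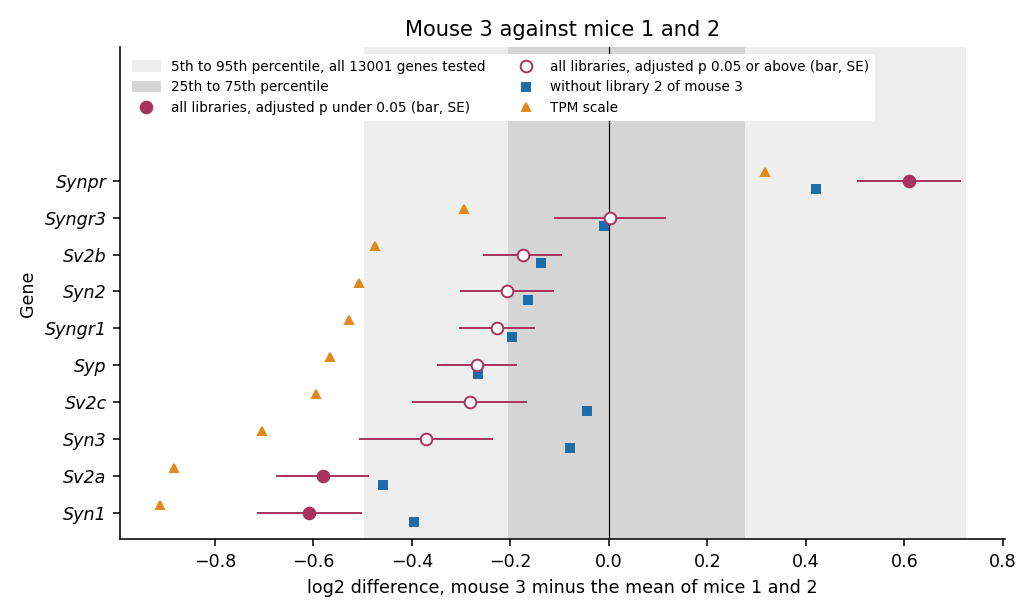
Difference of mouse 3 from the mean of mice 1 and 2 on the log2(FPKM + 1) scale for each gene, with its SE; filled points have an adjusted p under 0.05, and grey bands span the middle of all 13001 genes tested. Syn1 and Sv2a lie at −0.61 and −0.58 and Synpr at 0.61; without library 2 of mouse 3 (squares) Syn3 and Sv2c come to −0.08 and −0.04, and on the TPM scale (triangles) every gene shifts down.

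Library 2 of mouse 3 bore on every call. It was the lowest of the 8 libraries for 8 of the 10 genes and the highest for Synpr, while over all genes tested it was the lowest for 28.9% and the highest for 33.4%. Without it mouse 3 is a single library, assumed to vary like the libraries of mice 1 and 2, which alone then supply the spread. In that fit limma called 0 of the 10, with 3 at an unadjusted p under 0.05, and 126 of all genes tested (0.969%). The differences were then −0.40 for Syn1 (limma adjusted p = 0.0689), −0.46 for Sv2a (limma adjusted p = 0.0977) and 0.42 for Synpr (limma adjusted p = 0.0946), each in the same direction as with all libraries. Syn3 and Sv2c moved most, to −0.08 and −0.04. Without library 1 of mouse 3, library 2 stands alone for that mouse under the same assumption. Syn3 and Sv2c, in which library 2 lay far below all others, were then called too, at −0.66 and −0.52, which makes 5 of 10, and 29.4% of all genes were called. Without library 1 of mouse 2, Syp and Syngr1 were called too, again 5 of 10, and 29.8% of all genes.

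The libraries of mouse 3 also had higher FPKM totals, 384885 and 409889 against 295541 to 345572 in the other mice. Scaled to the same total (TPM), the median of all genes shifted to −0.26, and limma called 42.3% of all genes and 8 of the 10, all lower in mouse 3. Synpr was then at 0.32 (limma adjusted p = 0.123), and relative to the shifted median at 0.57. Relative to that median Syn1 stood at −0.65 and Sv2a at −0.63, close to −0.63 and −0.60 on the deposited scale.

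Among the transcripts, 3 of the 15 tested were called, against 7.17% of all transcripts tested. They were NM_001110780 of Syn1 (−0.57 ± 0.12 SE, limma adjusted p = 0.0430), the 1 transcript of Sv2a, NM_022030 (−0.58 ± 0.10 SE, limma adjusted p = 0.0412), and NM_001163032 of Synpr (0.73 ± 0.11 SE, limma adjusted p = 0.0355). The other Syn1 form, NM_013680, differed by −0.62 ± 0.14 (SE, limma adjusted p = 0.0746), and the difference between the forms was not tested. The upstream form of Synpr differed by 0.33 ± 0.19 (SE, limma adjusted p = 0.319). Whether the starts of Synpr differed from each other in this was not tested. Without library 2 of mouse 3, any library of mouse 1, or library 2 or 3 of mouse 2, limma called 0 of the 15, with 4 to 6 at an unadjusted p under 0.05. In those fits calls over all transcripts fell from 1179 to between 1 and 9, so the loss was not particular to these genes.

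Sv2c was unusual in how its FPKM followed its coverage. Its FPKM per unit of deposited coverage was 1.26 to 1.38 times the library's median in mice 1 and 2, but 1.63 and 1.69 times in mouse 3, while only 1.10% of 13770 transcripts with at least 1 FPKM in every library exceeded 1.3 times. The other genes stayed between 0.984 and 1.15 times. From coverage multiplied by length, with no length normalization, the Sv2c difference was −0.70 and passed the test (limma adjusted p = 0.0158), against −0.28 from FPKM.

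Several of the loci hold another gene on the opposite strand. The overlaps described here are of whole loci, and overlap of exons is not given. The counting strand is not given in the sources used here, so reads cannot be told apart in any stretch where exons overlap. The synapsin genes each hold within them a gene for a tissue inhibitor of metalloproteinases, a known arrangement of nested genes. Timp4 (chr6:115245616-115251849, minus strand), inside Syn2, had 21.6, 24.6 and 22.1 FPKM in the libraries of mouse 1, 15.7, 24.4 and 25.03 FPKM in those of mouse 2, and 39.4 and 56.2 FPKM in those of mouse 3. It was called higher in mouse 3 (1.06 ± 0.19 SE, limma adjusted p = 0.0150). Timp3 (chr10:86300412-86349505, plus strand), inside Syn3, was at 34.7 ± 3.78 FPKM (SD, n = 3 mice), above Syn3 itself in every library, and differed by 0.26 (limma adjusted p = 0.0549). Timp1 (chrX:20870166-20874737, plus strand), inside Syn1, stayed under 0.811 FPKM. Araf (chrX:20848543-20860521, plus strand), a kinase gene whose end meets that of Syn1, ranged from 80.7 to 144 FPKM over the libraries and differed by 0.48 (limma adjusted p = 0.0535). Mir5617 within Syn1 and 4930486F22Rik within Syn3 were listed at 0 in all libraries, and 1500012K07Rik, at the start of Sv2b, stayed under 0.362 FPKM.

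The wider vesicle cycle was read from 7 lists of 61 genes, of which 57 were tested. In the same limma fit 18 were called, 14 lower and 4 higher in mouse 3, which is 31.6% beside 25.5% of all genes, and the median difference was −0.15. The count fell to 4 without library 2 of mouse 3 (0.969% of all genes), to 8 to 10 without any 1 library of mouse 1 (12.9% to 14.7% of all genes) and to 11 without library 2 of mouse 2 (18.1% of all genes), so the calls named below rest on these libraries. Vesicle endocytosis had the most calls, 7 of 9 genes, with 6 lower. Dnm1, the neuronal dynamin that cuts vesicles from the membrane, was the highest of them and went from 247 and 244 FPKM in mice 1 and 2 to 171 in mouse 3 (−0.53, limma adjusted p = 0.0214). Dnm3, its relative and the lowest of the list, had the largest difference (−0.76, limma adjusted p = 0.00699). Cltb, a clathrin light chain, was the 1 called gene of the list that was higher (0.28, limma adjusted p = 0.0486).

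Of the kinases and phosphatases that act on synapsins, 5 of 10 were called, 3 lower and 2 higher. Ppp3ca, the catalytic subunit of calcineurin, fell from 212 and 206 FPKM in mice 1 and 2 to 129 in mouse 3 (−0.69, limma adjusted p = 0.00510). Camk2a, the α subunit of the kinase that phosphorylates synapsin I, was higher (341 and 349 FPKM against 502; 0.53, limma adjusted p = 0.00839), while Camk2b, the β subunit, was lower (−0.41, limma adjusted p = 0.0294). Camk1 was the other called higher (0.56) and Prkacb the other called lower (−0.31). Src, a tyrosine kinase and the lowest of the list at 19.3 FPKM, differed by −0.01 (limma adjusted p = 0.663).

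In the list of SNAREs, calcium sensors and Rab proteins 2 of 12 were called, both lower. They were Syt1, the calcium sensor of fast release (273 and 269 FPKM against 164; −0.73, limma adjusted p = 0.00629), and Rab3c (−0.47, limma adjusted p = 0.0128). Vamp2, synaptobrevin 2, the highest of the list at 366 ± 24.0 FPKM (SD, n = 3 mice), was at about the level of Syp, and differed by −0.13 (limma adjusted p = 0.204). Rab27b was the lowest, at 5.55 FPKM. Of the active zone genes 2 of 8 were called, Rims1 higher (0.45, limma adjusted p = 0.0172) and Unc13a lower (−0.50, limma adjusted p = 0.0425), and Rimbp2 was the lowest in level, at 11.4 FPKM. Of the vesicle transporters 1 of 7 was called, the acetylcholine transporter gene Slc18a3 (−0.31, limma adjusted p = 0.0329). Its level was near the 1 FPKM limit of the test, at 1.43, 1.15 and 0.847 FPKM in mice 1, 2 and 3. Slc17a7, for the vesicular glutamate transporter of cortical neurons, was the highest of the vesicle transporters, at 244 ± 24.7 FPKM (SD, n = 3 mice). The lowest was Slc17a8, at 0.784 FPKM. Of the proton pump genes 1 of 8 was called, Atp6v0a1 (−0.55, limma adjusted p = 0.0278), also the lowest of its list, while Atp6v0c, the highest at 500 ± 40.0 FPKM (SD, n = 3 mice), differed by 0.01. Of the 3 tested relatives Svop, Sypl and Syngr2, limma called 0, and 1 of them, Syngr2, had an unadjusted p under 0.05 (0.28, limma adjusted p = 0.0959). Called genes went both ways in 3 of the 7 lists, those of endocytosis, of the active zone and of the kinases and phosphatases.

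Cell type markers were read in the same fit, in which 25.5% of all genes were called, 14.1% higher and 11.3% lower in mouse 3. Lists with 1 call of 4 or 5 genes were near or below that share. The marker calls are for all 8 libraries and were not recounted with a library left out. All 5 astrocyte markers were called higher in mouse 3, with sums of 523 to 559 FPKM against 346 to 368 in mice 1 and 2, led by Gfap (1.03, limma adjusted p = 0.00510). Of 5 oligodendrocyte markers, 3 were called higher, with sums of 3881 to 4801 against 1990 to 2207 FPKM, led by Mbp (1.27, limma adjusted p = 0.00393). For neurons 1 of 5 markers was called, Rbfox3 lower (−0.49, limma adjusted p = 0.0103), with sums of 1305 to 1455 against 1414 to 1572 FPKM. For glutamatergic neurons 1 of 4 was called lower (Neurod2), and for GABAergic neurons 2 of 6 lower (Gad1 and Gad2) and 1 higher (Pvalb). Microglia had 2 of 5 called higher, endothelial cells 1 of 5, blood 1 of 5, choroid plexus 1 of 5 lower and oligodendrocyte precursors 0 of 2. All neuronal, glial and vascular lists were detected, as a whole brain would give, and the pituitary list was near 0, summing to 2.12 to 3.17 FPKM over its 5 genes. The part of these differences in those of Syn1, Sv2a and Synpr was not tested.

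**Figure D4:**
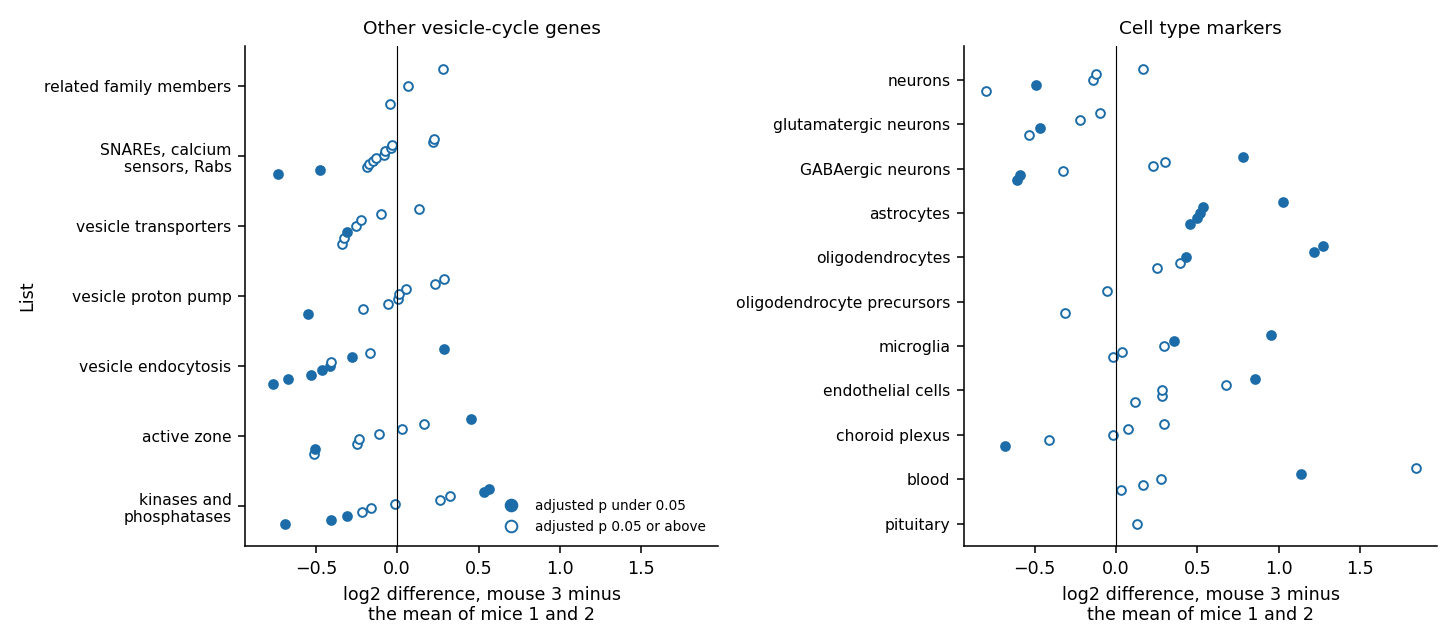
Difference of mouse 3 from the mean of mice 1 and 2 on the log2(FPKM + 1) scale for each tested gene of 7 vesicle-cycle lists (left) and 11 cell type marker lists (right); filled points have an adjusted p under 0.05. Vesicle endocytosis has 7 filled points of 9, 6 of them below 0, and the 5 astrocyte markers are all filled and above 0.

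Over the 8 libraries some of the 10 genes ran closely together. The correlations below are descriptions over 8 libraries of 3 mice in which libraries of a mouse share the animal and each library's genes share its depth and composition, and carry no test. On log2(FPKM + 1), Syn3 and Sv2c had a Pearson r of 0.989, Syn2 and Sv2b 0.972 and Syn1 and Sv2a 0.967. Each synapsin was thus closest, among the 10, to a different SV2 gene. Values above 0.95 were common, with 545 of all genes tested for Syn1 and 139 for Syn3. Syn3 and Sv2c shared a low outlying library, library 2 of mouse 3, at 2.77 and 4.87 FPKM. The correlations were not recomputed without it. Synpr ran against most of them, with r = −0.953 to Syn1, and Syngr3 followed none closely, with at most 0.681 (Syn2).

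Among all 13001 genes tested, the gene most like Syn1 over the 8 libraries was Stx16 (r = 0.998), like Syn2 Abcb9 (0.985) and like Syn3 Grin2b (0.993). For Sv2a it was Gprasp2 (0.996), for Sv2b Atp6v1a (0.991) and for Sv2c Srcap (0.992). For Syp it was Basp1 (0.994), for Synpr Gtf2a2 (0.997), for Syngr1 Rnf24 (0.993) and for Syngr3 Dhx34 (0.985). Atp6v1a, a subunit of the vesicle proton pump, was the 1 of these that belongs to the vesicle-cycle lists. The number of genes with r above 0.95 ran from 28 for Syp to 545 for Syn1.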

How the data were processed

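Whole-brain RNA was prepared with the RNAqueous Micro kit and the Kapa mRNA HyperPrep kit and read on a NextSeq500. The deposited table gives FPKM and coverage (a signal) for 34535 RefSeq transcripts per library, made by the authors with TopHat and Cufflinks on mm10; versions, read length and strand setting are not given in the sources used here. No counts were used, and bases on transcripts (coverage times length) summed to 1.31 to 2.02 gigabases per library. FPKM were summed over a gene's transcripts. Genes that averaged 1 FPKM or more were tested as log2(FPKM + 1), a scale that understates the change of low genes, with limma 3.58.1 in R 4.3.3 (F-test over mice, adjusted p under 0.05), after tests on simulated data. Starts are printed as the deposited start plus 1, which equalled the RefSeq GRCm38 start for 61.8% of 22999 genes, against 3.19% for the deposited start as written. Proteins came from GENCODE M21. Named genes were the 10 members, their transcripts, overlapping genes, the most similar gene to each, and per list the highest, the lowest and the called gene with the largest range of mouse means. Further called genes and markers were named after their values were seen. The members and lists were chosen with earlier results of these data known. Libraries of equal number in different mice deviated from their mouse means with r = 0.00276 to 0.107, against −0.135 to 0.0645 for unequal numbers. Library numbers were not used as pairs in the main fit.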

Additional observations from a re-analysis of the deposited data

Results flagged for a closer look

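In 3 of the 10 genes a single library lay far from the other 7, by Dixon's test of its gap against the whole range. Syn3 was at 2.77 FPKM in library 2 of mouse 3, where the nearest other library had 4.57 FPKM. Sv2c was at 4.87 FPKM in the same library, where the nearest other had 6.85 FPKM. Syngr3 was at 37.1 FPKM in library 1 of mouse 2, where the nearest other had 46.6 FPKM. Chance alone marks about 1 in 20 such groups, and libraries of a mouse are not independent. The share of all genes tested that would be marked in this way was not counted, so 3 of 10 cannot be set against it. Over all genes tested, library 1 of mouse 2 was the lowest for 36.8% and library 2 of mouse 3 for 28.9%. Library 1 of mouse 2 had the fewest bases on transcripts, 1.31 gigabases, and the lowest FPKM total, 295541.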

How the results depend on the processing

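The count of 3 of 10 genes called by limma became 8 on the TPM scale (42.3% of all genes called), 5 with no length normalization (29.8%) and 5 with the contrast of mouse 3 with mice 1 and 2 as the test (37.9%), and ran from 0 to 5 with 1 library left out (0.969% to 29.8%). It stayed at 3 with pseudocount 0.1 (22.4% of all genes called), with no filter (14.0%) and with the length trend removed (20.3%). With a mean of at least 5 FPKM, which left Syn3 untested, 3 were called too, beside 36.8% of all genes. Called transcripts, 3 of 15, became 1 with pseudocount 0.1 (4.34% of all transcripts called) and 8 on the TPM scale (20.8%), and ran from 0 to 7 with 1 library left out (0.00608% to 10.6%). Called vesicle-cycle genes, 18 of 57, became 36 on the TPM scale and ran from 4, without library 2 of mouse 3, to 22, without library 1 of mouse 2 or library 1 of mouse 3. Over the 16 alternatives Sv2a and Syn1 were called in 15 (adjusted p 0.00375 to 0.0977 and 0.00464 to 0.0689) and Synpr in 14 (0.00453 to 0.123), each in 1 direction throughout.

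Syngr3 and its transcript NM_011522 turned negative on the TPM scale (−0.295, where the median of all genes shifts to −0.26 by the scaling), with no length normalization (−0.0545) and with the length trend removed (−0.129 and −0.130), and ran from −0.0619 to 0.0507 with 1 library left out, below 0 without library 1 of mouse 1 (−0.0156), library 1 of mouse 2 (−0.0619) or library 2 of mouse 3 (−0.0103). With the length trend removed NM_001109753 of Sv2b came to 0.0232 and NM_009303 of Syngr1 to −0.0130. NM_028052 of Synpr ran from −0.0685, without library 2 of mouse 3, to 0.726. The cause was not tested. The summed level of 953 FPKM became 838 with the highest transcript of each gene, which also reordered 6 genes, and 2792 in TPM, and ran from 948 to 959 with 1 library left out. Leading transcripts led in all 8 libraries for 5 genes, and for 5 genes also by shares of coverage multiplied by length. Leaving out 1 library could not undo such a lead, so those runs are no check of it.

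The main fit did not use library numbers as pairs. With the library number as a replicate block 3 genes were called, with 0 of their transcripts by limma (5 at an unadjusted p under 0.05) and 11 vesicle-cycle genes, beside 2995 of all genes and 1 of all 16436 transcripts.

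Over all genes the count of 3310 calls fell to 126 without library 2 of mouse 3 and was 5493 on the TPM scale, where 86.9% of calls were lower in mouse 3, against 44.6% as deposited. With 3 mice and 1 condition, the animal, its extraction and its libraries cannot be told apart as sources of a difference. FPKM carry no read counts, so counting error is known only from the deposited confidence limits.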
